A study of Mus musculus with 10 samples.

Results

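Cirbp and Rbm3 encode the cold-inducible RNA-binding proteins, a pair of small proteins that each join an RNA-recognition motif to a glycine-rich tail. The 2 genes were taken by name out of the 47729 genes of the count table and were matched through their Ensembl identifiers. They were chosen by name with earlier diet results known, that is, the LP and NP counts described here, so their differences between diets are a description and carry no test here. Brain tissue of CF1 mice (strain label crlfcen:CF1) of postnatal day 56 had been profiled by RNA sequencing. No genetic change is named. Before birth and through lactation the mice had been exposed to a low-protein (LP) or a normal-protein (NP) diet, which both parents ate at mating and the dams ate until weaning on day 21. All offspring then received the NP diet for 5 weeks. The 10 libraries are 1 LP and 1 NP library each of male hypothalamus, female hippocampus, male hippocampus, female prefrontal cortex and male prefrontal cortex. They form 5 pairs of LP against NP. The labels do not say whether a library is 1 mouse or a pool, or whether regions come from the same mice, so every p-value below measures the spread between these libraries, which may be technical.

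CIRBP and RBM3 are induced when mammalian cells are cooled by a few degrees, whereas most transcription and translation slows down. Both proteins bind RNA and act on its stability, splicing or translation, and both follow the daily rhythm of body temperature. In the brain RBM3 is best known for supporting synapse regeneration after cooling through its target Rtn3. CIRBP is known for binding clock gene transcripts, for choosing between polyadenylation sites and, when released from cells, for acting as a danger signal.

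Total counts ran from 10256882 to 16265481 in 9 libraries. The female NP hippocampus library, with 7871010 counts, stands apart: it has 503 counts on Park7 on chromosome 4 and then no counts on the genes that follow it there, on chromosomes 5 to 9 or on chromosomes X, Y and M. These genes, Park7 itself and the 419 genes with no matched position, 19598 in all, were treated as not measured in that library. As sums over each list, markers fitted the labelled regions. The summed level of 6 hypothalamic markers was 357 CPM (counts scaled to a common library size) in LP and 710 CPM in NP hypothalamus, and at most 2.20 CPM in the other regions. The 6 hippocampal markers summed to 1356 to 1430 CPM in hippocampus and at most 680 CPM elsewhere. The 6 neocortical markers summed to 880 to 951 CPM in prefrontal cortex and at most 294 CPM elsewhere. Spock1 of the hippocampal list was higher in prefrontal cortex (382 to 426 CPM) than in hippocampus (328 to 341 CPM). Rasgrf2 of the neocortical list was highest in hypothalamus (210 to 230 CPM, against 171 to 188 CPM in prefrontal cortex). The female NP hippocampus library is in none of the marker sums given here and below. The hippocampal markers measured in it had a median log2 ratio of 0.09, LP over NP, within the female hippocampus pair. The male NP hippocampus library held 556 CPM of pituitary markers, against 3.92 to 13.1 CPM in LP hippocampus.

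Cirbp (ENSMUSG00000045193) lies at GRCm38 chr10:80165985-80172786 on the plus strand and was measured in all 10 libraries. Its annotation holds 7 transcripts, of which 2 are protein coding, 1 of them incomplete in the annotation, 1 is a nonsense-mediated decay transcript and 4 retain an intron. Rbm3 (ENSMUSG00000031167) lies at chrX:8138975-8145880 on the minus strand, past the break in the incomplete library, and was measured in 9 libraries. Its annotation holds 11 transcripts, of which 6 are protein coding. Temperature is known to act on both genes partly through which of these transcripts is made, and counts per gene cannot separate them.

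The coding sequences of both genes were compared because reads are assigned by sequence, and because the paralogs share a fold. Over 450 aligned coding bases, Cirbp (516 coding bases) and Rbm3 (462 coding bases) were identical at 73.1%. The stretch from coding base 87 to base 146 of each, from GENCODE M21 transcripts, shows how the differences are spread. Capitals mark the 13 bases that differ.
Cirbp: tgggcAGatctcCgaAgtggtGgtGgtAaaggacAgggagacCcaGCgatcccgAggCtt
Rbm3: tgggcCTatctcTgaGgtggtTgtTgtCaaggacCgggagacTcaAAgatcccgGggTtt
The closest match between whole transcripts of the 2 genes was 72.3% identical over 260 bases. Rbm3, by contrast, has near-identical copies elsewhere. Rbm3-ps, a processed copy at GRCm38 chr1:150265535-150265999, matched the Rbm3 coding sequence at 459 of 462 bases. Bases 285 to 344 are printed because they hold 2 of the differences, marked by capitals.
Rbm3: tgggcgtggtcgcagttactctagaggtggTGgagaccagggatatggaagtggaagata
Rbm3-ps: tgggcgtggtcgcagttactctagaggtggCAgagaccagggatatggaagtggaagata
Outside the capitals this stretch is the same in both. A further copy, Gm10156 on chromosome 7, was 98.5% identical to Rbm3 over 465 bases, and a transcript of Phospho2 on chromosome 2 was 97.4% identical over 380 bases. How the counting treated such reads is not given in the sources used here, so part of the Rbm3 count is uncertain.

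Of the 2 genes, 1 has entries in the RefSeq promoter table (GRCm38.p6), and the first of the 2 Cirbp entries is shown because the mild-cold response element TCCCCGCC, a motif named for Cirbp itself, stands in it. The window is chr10:80167589-80167888 on the plus strand, from 250 bases before a transcript start to 50 after it. Capitals mark the element.
Cirbp promoter: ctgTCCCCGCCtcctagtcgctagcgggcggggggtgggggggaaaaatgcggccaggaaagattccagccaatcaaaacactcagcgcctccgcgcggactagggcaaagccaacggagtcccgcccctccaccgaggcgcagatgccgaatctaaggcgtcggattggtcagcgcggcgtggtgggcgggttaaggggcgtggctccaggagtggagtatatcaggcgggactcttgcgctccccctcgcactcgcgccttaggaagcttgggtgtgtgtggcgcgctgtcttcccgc
With both strands searched, this window held 1 copy of TCCCCGCC, which 5.38% of 32851 promoter windows of this length hold. It had 3 matches to the GC box GGGCGG (35.7% of windows hold one) and 2 to CCAAT (37.4%). The letters GAANNTTC, part of the heat shock element, were not found in it (7.86% of windows hold them), nor were the E-box CACGTG (7.15%) or the cAMP response element TGACGTCA (1.79%). The second Cirbp window had 4 GC boxes and no TCCCCGCC. GC made up 65.7% of the window shown.

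Cirbp was expressed at a lower level in the LP than in the NP library of every pair. Its level is given as CPM over the genes measured in all 10 libraries, with library sizes scaled by edgeR's trimmed mean of M-values (TMM). In hypothalamus Cirbp stood at 134 CPM (1499 counts) in the LP male and 172 CPM (2121 counts) in the NP male. In hippocampus it had 74.0 CPM in the LP female and 75.0 CPM in the LP male, against 93.6 CPM in the NP female and 100.3 CPM in the NP male. In prefrontal cortex it had 98.9 CPM in the LP female and 96.6 CPM in the LP male, against 109 CPM in the NP female and 119 CPM in the NP male. Within each region the LP and NP values did not overlap. Of 11433 genes tested and measured in all libraries, 3.26% had every LP value below every NP value in each of the 3 regions, and 5.83% were lower in LP in all 5 pairs. Across regions the diets did overlap, since LP hypothalamus was above NP hippocampus and NP prefrontal cortex.

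**Figure D1:**
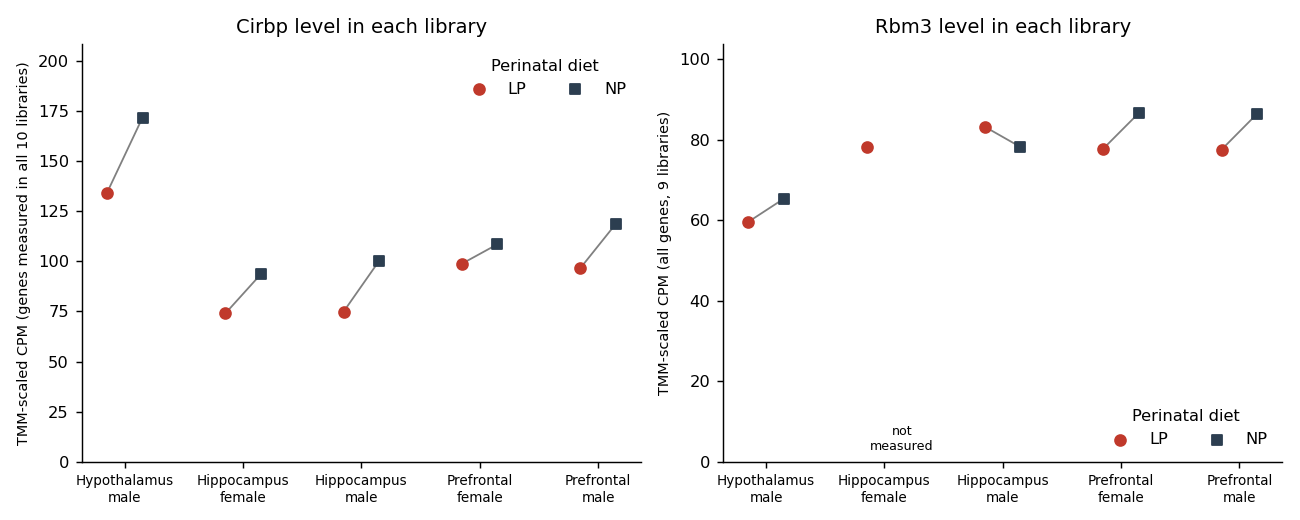
Level of Cirbp (left) and Rbm3 (right) in each library, in TMM-scaled CPM from 0, with LP (circles) left of NP (squares) and a line joining the libraries of a pair. The LP point of Cirbp lies below its NP point in all 5 pairs, while that of Rbm3 does so in 3 of 4, and Rbm3 was not measured in the NP library of female hippocampus.

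Expressed as log2 ratios of LP over NP, Cirbp ranged from -0.42 to -0.13 over the 5 pairs, with a mean of -0.31 ± 0.11 (SD, n = 5). Counting error alone gave 95% intervals of -0.45 to -0.26 around the hypothalamus ratio of -0.36, of -0.50 to -0.18 around the female hippocampus ratio of -0.34 and of -0.57 to -0.27 around the male hippocampus ratio of -0.42. The male prefrontal ratio was -0.30 (-0.43 to -0.16), and the female prefrontal ratio was -0.13 (-0.29 to 0.02). The female prefrontal pair is thus the 1 pair whose difference is within counting error. These intervals cover counting error only and not the variation between mice. The edgeR fit over all pairs, with region and sex as strata, gave a log2 fold change of -0.31 ± 0.05 (SE), which is 0.806-fold in LP. With 1 pair left out at a time this value lay between -0.35 and -0.29. The second number in the title code of the LP hypothalamus library is not the one that the other 9 share, with or without a leading zero. What the codes stand for is not given, so in hypothalamus this and diet cannot be told apart. Without the hypothalamus pair the fitted value was -0.30 for Cirbp. In bulk tissue, fewer cells that express a gene and less RNA per cell cannot be told apart.

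Rbm3 was lower in LP in 3 of its 4 pairs and by smaller amounts. Its level is given as TMM-scaled CPM over all genes of the 9 complete libraries. Hypothalamus had 59.6 CPM (1003 counts) in the LP male and 65.4 CPM (1221 counts) in the NP male. Prefrontal cortex had 77.8 CPM in the LP female and 77.6 CPM in the LP male, against 86.7 CPM in the NP female and 86.5 CPM in the NP male. In male hippocampus the order was the other way, with 83.3 CPM (1042 counts) in LP and 78.2 CPM (930 counts) in NP, and the LP female hippocampus had 78.2 CPM with no NP value to set it against. The female and the male library of each diet thus nearly coincided in prefrontal cortex, and the diets did not overlap there, a pattern shared by 20.8% of 17797 genes tested. A lower LP value in all 4 pairs, which Rbm3 did not show, was found for 10.6% of those genes.

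The log2 ratios of LP over NP for Rbm3 were -0.13 in hypothalamus (95% counting interval -0.25 to -0.01), 0.09 in male hippocampus (-0.04 to 0.22), -0.16 in female prefrontal cortex (-0.30 to -0.01) and -0.16 in male prefrontal cortex (-0.28 to -0.03). The intervals of the 3 pairs with lower LP values end just below 0. The mean over pairs was -0.09 ± 0.12 (SD, n = 4), and the fit over pairs gave -0.09 ± 0.06 (SE). Without the male hippocampus pair the fitted value was -0.15 ± 0.06, so that this 1 pair sets how far Rbm3 stands from 0.

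**Figure D2:**
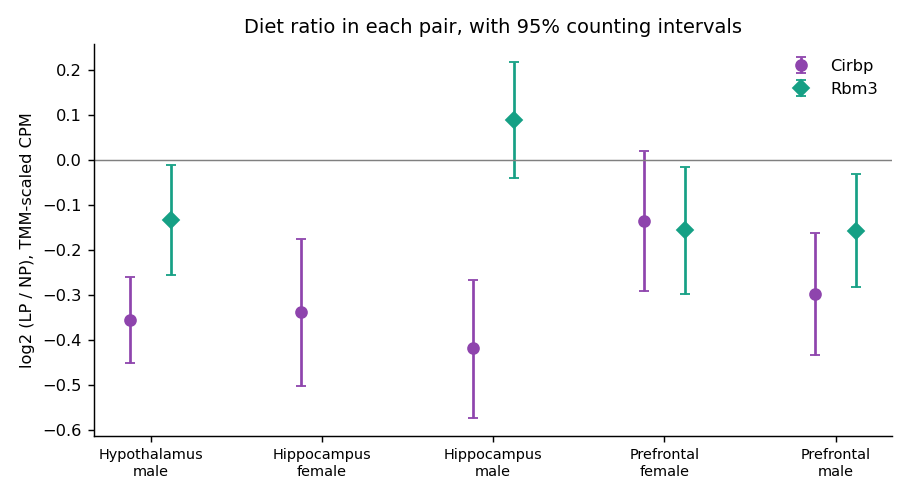
Log2 ratio of LP over NP in each pair of libraries for Cirbp (circles) and Rbm3 (diamonds), with bars for the 95% counting interval of the ratio. Cirbp lies below 0 in all 5 pairs, from -0.42 to -0.13, and Rbm3 lies between -0.16 and 0.09 over its 4 pairs.

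In male hippocampus, where Rbm3 was higher in LP, its copies Rbm3-ps and Gm10156 were lower. Rbm3-ps had 57 counts in LP and 86 in NP male hippocampus, and Gm10156 had 19 in LP and 42 in NP. In the other complete libraries Rbm3-ps had 52 to 70 counts in LP and 54 to 91 in NP. It amounted to 5.47% of the Rbm3 count in the LP and 9.25% in the NP male hippocampus library, the lowest and the highest share of all 9. When the counts of Rbm3, Rbm3-ps and Gm10156 were summed, an alternative chosen after the data had been seen, the log2 ratio of LP over NP was 0.01 in male hippocampus, -0.14 in hypothalamus, -0.15 in female prefrontal cortex and -0.15 in male prefrontal cortex. The summed count therefore was not higher in LP in any of the 4 pairs by more than 0.01, and how reads were shared among the copies was not tested. Phospho2, which matches Rbm3 over part of a transcript, was not in the sum. It went the other way in male hippocampus, with 361 counts in LP and 301 in NP. In the incomplete library, where Rbm3 itself was not measured, Rbm3-ps had 117 counts or 15.3 CPM, above the 5.91 to 10.8 CPM of the other 9 libraries. Over the 5 pairs Rbm3-ps had a log2 fold change of -0.39 ± 0.13 (SE), with an adjusted p of 0.207 (edgeR quasi-likelihood test, Benjamini-Hochberg over all genes tested).

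None of the 3 neighbours of the 2 loci that could be tested passed the diet test, which 1.25% of 17797 genes passed. Rbm3os, an antisense transcript that overlaps Rbm3 by 452 bases, had 3 to 6 counts in LP and 1 to 4 in NP libraries, against 753 to 1221 counts of Rbm3, and was too low to be tested. Wdr13, the other gene that starts within 10 kb of Rbm3, had a log2 fold change of -0.03 ± 0.04 between diets. 1600002K03Rik, which begins 158 bases after Cirbp ends, had 36 to 67 counts in LP and 31 to 66 in NP libraries, with a log2 fold change of 0.14 ± 0.16. Efna2, the next gene, stood at -0.02 ± 0.12. Adjusted p-values of these 3 neighbours were 0.762 to 0.974 in the edgeR fit.

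Whether the diet difference itself varied between regions or sexes was tested for each gene in edgeR's quasi-likelihood framework. For Cirbp, the diet log2 fold change in hippocampus minus that in prefrontal cortex was -0.16 ± 0.11 (SE), with a 95% interval of -0.38 to 0.07 and an adjusted p of 0.984. Of 11876 genes 0.0% passed this test. Before adjustment 637 of them were under 0.05, 1 gene was called with the previous method of edgeR and 0 with DESeq2. The female minus the male diet difference of Cirbp was 0.12 ± 0.10 (interval -0.11 to 0.34, adjusted p = 0.854), in a test that 0.173% of 10973 genes passed. For Rbm3 the fits, added after the data had been seen, had 1 residual degree of freedom. Their intervals and p-values thus rest largely on variance that edgeR shares across genes, and little on the spread of Rbm3 itself. Its diet difference in hippocampus minus prefrontal cortex was 0.25 ± 0.14 (interval -0.02 to 0.51, adjusted p = 1, 0.33% of 18203 genes called). In hypothalamus minus hippocampus it was -0.22 ± 0.15 (interval -0.53 to 0.08, adjusted p = 0.749, 0.945% called). In females minus males it was -0.12 ± 0.13 (interval -0.41 to 0.16, adjusted p = 0.999, 0.0519% of 17331 called). A difference between regions or sexes was not shown for either gene, and the intervals leave room for differences as large as the diet differences themselves.

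The order of the regions was not the same for the 2 genes. Cirbp was highest in hypothalamus, at 153 CPM on average with 134 and 172 CPM in its 2 libraries. It averaged 85.7 ± 13.3 CPM in hippocampus (SD, n = 4) and 106 ± 10.1 CPM in prefrontal cortex (SD, n = 4). Both hypothalamus libraries were above all 8 others. Hippocampus and prefrontal cortex overlapped over both diets, but within LP and within NP each hippocampus library was below each prefrontal library. In the fit with sex and diet as terms, Cirbp was 1.75-fold higher in hypothalamus than in hippocampus (log2 fold change 0.81 ± 0.07, adjusted p = 1.04e-07). It was 1.42-fold higher in hypothalamus than in prefrontal cortex (0.50 ± 0.07, adjusted p = 1.20e-05). In hippocampus it was 0.808-fold its level in prefrontal cortex (-0.31 ± 0.05, adjusted p = 0.000269), all by edgeR's quasi-likelihood test. Regions differed for most genes: 60.3%, 63.6% and 53.4% of 17550 genes passed these 3 tests in the order given.

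Rbm3 took another order. It averaged 62.5 CPM in hypothalamus (59.6 and 65.4 CPM), 79.9 ± 2.91 CPM in hippocampus (SD, n = 3) and 82.1 ± 5.13 CPM in prefrontal cortex (SD, n = 4). Both hypothalamus libraries were below the other 7, while hippocampus and prefrontal cortex overlapped. The log2 fold change was -0.37 ± 0.07 in hypothalamus against hippocampus (adjusted p = 0.000512) and -0.39 ± 0.07 in hypothalamus against prefrontal cortex (adjusted p = 0.000273) in the edgeR fit. Hippocampus and prefrontal cortex did not differ beyond their spread (-0.02 ± 0.06, 95% interval -0.15 to 0.11, adjusted p = 0.771). The hypothalamus values of Rbm3 depend on scaling. TMM factors were 1.15 for both hypothalamus libraries and 0.94 to 0.98 for the other 7. With library totals alone, chosen as an alternative after the data had been seen, Rbm3 had 68.3 CPM in LP and 75.1 CPM in NP hypothalamus, against 75.3 to 80.3 CPM in hippocampus and 73.4 to 84.4 CPM in prefrontal cortex. The hypothalamus differences were then -0.13 against hippocampus (adjusted p = 0.147) and -0.15 against prefrontal cortex (adjusted p = 0.0922), and neither passed. That scaling moved the median of all genes to 0.27 and 0.28 in the same comparisons, so relative to the median gene Rbm3 was again lower. The higher Cirbp level in hypothalamus kept its call without the factors, at 1.07 and 0.77 on the log2 scale.

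**Figure D3:**
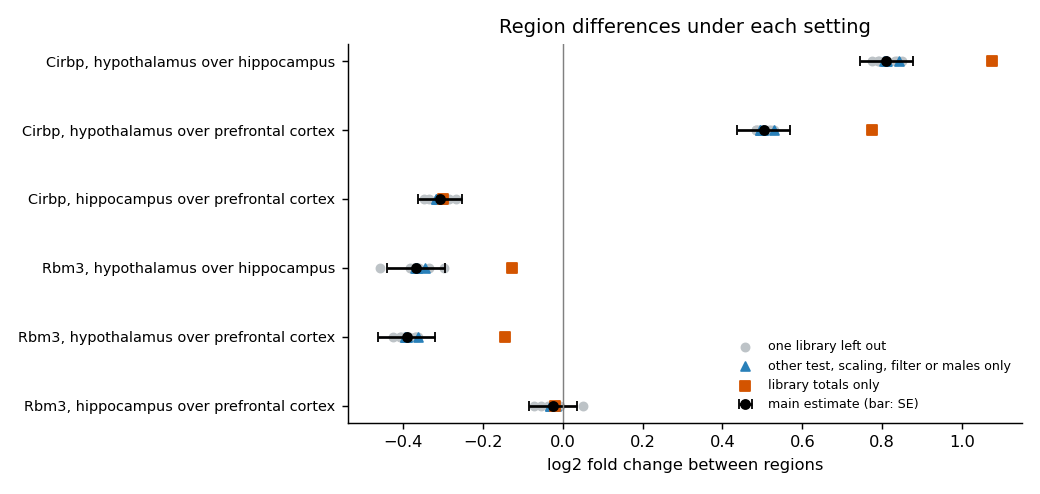
Log2 fold changes between regions for Cirbp and Rbm3 under each setting, with the main estimate and its SE in black, fits that leave out 1 library in grey, other tests, scalings, filters and male libraries in blue and library totals alone in orange. Cirbp lies to the right of 0 in hypothalamus and Rbm3 to the left, and totals alone bring Rbm3 to -0.13 and -0.15.

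Hypothalamus was profiled in males only, and with male libraries alone the region values were nearly the same, at 0.80 and 0.50 for Cirbp and -0.37 and -0.39 for Rbm3. Cell makeup differed between the regions along with these levels. The 8 neuron markers summed to 2789 CPM in LP and 2941 CPM in NP hypothalamus, against 7384 to 7635 CPM in hippocampus and 7699 to 7968 CPM in prefrontal cortex. Slc17a7, a marker of some neurons only, had 2.89 to 3.51 CPM in hypothalamus and at least 1810 CPM elsewhere. Rbfox3, Snap25, Syt1, Nefl and Gad1 were also lower in hypothalamus than in both other regions. Gad2 was higher there (229 to 301 CPM, at most 158 CPM elsewhere). Tubb3 (430 to 449 CPM) was above hippocampus (268 to 290 CPM) and within the prefrontal range. The 8 oligodendrocyte markers summed to 3779 CPM in LP and 5188 CPM in NP hypothalamus, against 5816 to 6400 CPM in hippocampus and 1634 to 2758 CPM in prefrontal cortex. Their part in the region differences of Cirbp and Rbm3 was not tested.

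Sex made no detectable difference. Cirbp had 74.0 CPM in female and 75.0 CPM in male LP hippocampus, 93.6 CPM in female and 100.3 CPM in male NP hippocampus, and the female over male log2 fold change was -0.05 ± 0.05 (interval -0.16 to 0.06, adjusted p = 0.82, edgeR quasi-likelihood test). Rbm3, although on the X chromosome, had a female over male log2 fold change of -0.03 ± 0.06 (interval -0.15 to 0.08, adjusted p = 0.909). Of 17004 genes, 0.465% passed this test.

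Since both genes were counted in the same libraries, the ratio of their counts needs no scaling. There were 1.49 Cirbp counts per Rbm3 count in LP and 1.74 in NP hypothalamus. The ratio was 0.631 in LP female hippocampus, and 0.601 in LP against 0.856 in NP male hippocampus. In prefrontal cortex it was 0.842 in LP and 0.831 in NP females, and 0.826 in LP and 0.914 in NP males. Hypothalamus thus held more Cirbp than Rbm3 counts and every other library fewer. The ratio was lower in LP by 0.51 on the log2 scale in male hippocampus, by 0.22 in hypothalamus and by 0.15 in male prefrontal cortex, and was higher by 0.02 in female prefrontal cortex. The counting intervals of LP and NP were apart in male hippocampus (0.543 to 0.664 in LP, 0.778 to 0.942 in NP) and overlapped in both prefrontal pairs. In hypothalamus they overlapped at their ends, at 1.38 to 1.62 in LP and 1.62 to 1.87 in NP. Across the 9 libraries the log2 CPM of the 2 genes had a Pearson r of -0.59, which turned to 0.40 over the 7 libraries without hypothalamus, so that the negative value rests on that region.

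**Figure D4:**
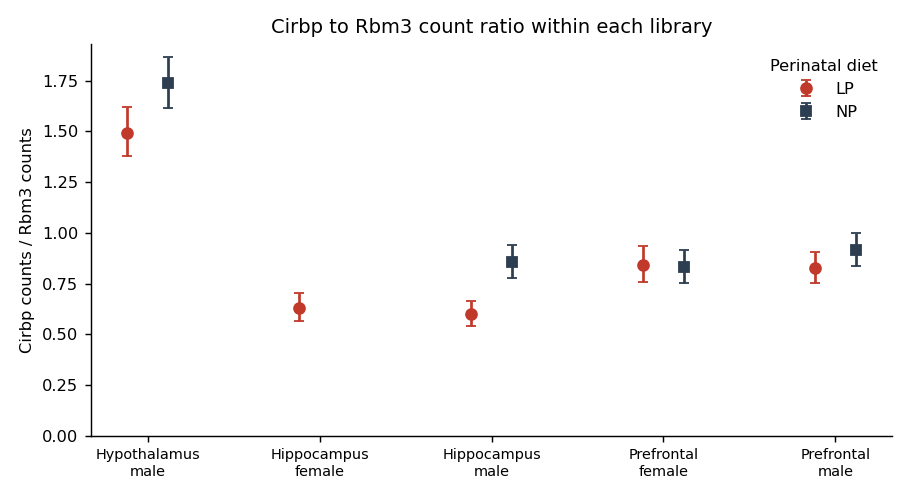
Cirbp counts divided by Rbm3 counts within each library, LP (circles) left of NP (squares), with bars for the 95% counting interval and an axis from 0. Both hypothalamus libraries lie above 1 and all others below it, and the intervals of LP and NP are apart in male hippocampus.

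Which gene was higher per length depended on the transcript length used. On the RPKM scale, which is CPM divided by exon length in kilobases, it averaged 27.7 over the 9 complete libraries, from 18.95 RPKM in LP female hippocampus to 43.6 RPKM in NP hypothalamus. Rbm3 averaged 16.4 RPKM, from 12.7 RPKM in LP hypothalamus to 18.4 RPKM in the NP prefrontal libraries. On this scale every Cirbp value was above every Rbm3 value, and Cirbp stood above 88.0% and Rbm3 above 79.9% of 17731 genes tested. Exon lengths are the union over all annotated transcripts, 2604 bases for Cirbp and 4698 bases for Rbm3, and counts per gene do not show which transcripts were in use. With the lengths of single transcripts, tried after the data had been seen, the order turned in some cases. With its principal transcript of 1321 bases Cirbp averaged 54.6 RPKM. Rbm3 averaged 27.6 RPKM with its principal transcript of 2792 bases, 62.9 RPKM with that of 1225 bases and 66.9 RPKM with that of 1152 bases. With either of the 2 shorter lengths Cirbp was the higher gene in the 2 hypothalamus libraries and Rbm3 in the other 7.

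The related genes were read in the diet fit over all pairs, in which 1.25% of 17797 genes passed an adjusted p of 0.05, with 0.871% higher and 0.382% lower in LP. These 223 genes became 85 without the female prefrontal pair, 88 without the male hippocampus pair and 117 with DESeq2. The gene lists here and the marker lists below were chosen with earlier results of these data known. Calls and p-values of their genes are therefore a description and not independent tests. No member of the other family named for cold, the cold shock domain genes, passed among 7 tested of 8, with 1 under an unadjusted p of 0.05 in edgeR and 0 called by DESeq2. Their median was 0.04 on the log2 scale, against 0.00 over all genes, with Csdc2 at 0.04 ± 0.04. Of 15 tested genes that also join an RNA-recognition motif to a glycine-rich or related tail, 1 fell and none rose, with a median of -0.05 and 11 of 15 values below 0. The gene that fell was Hnrnpdl, a nuclear splicing regulator, at -0.20 ± 0.04 (adjusted p = 0.0463, edgeR), a call that DESeq2 did not make and that 4 of the 5 fits without 1 pair lost. None of 20 SR proteins, their CLK and SRPK kinases and hnRNP H and F genes, which take part in temperature-dependent splicing, passed the edgeR test (median 0.02), with 3 under an unadjusted p of 0.05 and 0 called by DESeq2. Srsf5 stood at -0.11 ± 0.04 and Hnrnph1 at 0.01 ± 0.05.

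Of 22 genes of the heat shock response, the heat-induced arm, 8 rose in LP and none fell, and 19 of 22 values were above 0, with a median of 0.17. DESeq2 called 6 of them, and fits without 1 pair 5 to 8. Dnajb1, a co-chaperone of HSP70, was 1.97-fold higher in LP (log2 0.98 ± 0.07, adjusted p = 2.34e-05 in the edgeR fit). Hspb1, a small heat shock protein, was 2.57-fold higher (1.36 ± 0.15, adjusted p = 0.000826), and Hsph1, which exchanges nucleotides on HSP70, was 1.28-fold higher (0.36 ± 0.05, adjusted p = 0.00440). Hspa1b, an inducible HSP70, was 4.22-fold higher (2.08 ± 0.30, adjusted p = 0.00564), though it and Hspa1a are nearly identical and reads may be shared between them. Hspa1b was higher in LP in all 5 pairs, from 0.55 in female hippocampus to 3.41 in hypothalamus. The transcription factor Hsf1 itself stood at 0.05 ± 0.05.

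Of 19 circadian clock genes 3 rose in LP and none fell (median 0.06). Per1 was at 0.40 ± 0.05 (adjusted p = 0.00106) and Per2 at 0.45 ± 0.05 (adjusted p = 0.000651), both repressors in the clock loop, and Nfil3, a repressor of clock output genes, at 0.43 ± 0.08 (adjusted p = 0.0242, all edgeR). The Nfil3 call was not made by DESeq2 and was lost in 4 of the 5 fits without 1 pair. The time of day at which tissue was taken is not given in the labels. Clock, a transcript bound by CIRBP, stood at -0.18 ± 0.08 (adjusted p = 0.324). Of 12 tested genes, of 14 listed, that are partners, targets or upstream regulators of either protein, 1 rose and none fell (median 0.00). The gene that rose was Bdnf, which encodes the ligand of TrkB, at 0.44 ± 0.09 (adjusted p = 0.0352, edgeR), a call that DESeq2 also made and that 4 of the 5 fits without 1 pair lost. Ntrk2, which encodes TrkB and lies upstream of Rbm3 in synapse repair, was at 0.07 ± 0.03 (adjusted p = 0.367), and Rtn3, whose translation RBM3 raises, was at 0.00 ± 0.03 (adjusted p = 0.991). Sp1, a factor known to bind the mild-cold response element, was at 0.00 ± 0.09. Of 16 hypoxia targets, listed because mild hypoxia induces both genes in cultured cells, 2 rose and none fell (median 0.03), with P4ha1 at 0.41 ± 0.05 (adjusted p = 0.00170) and Slc2a1 at 0.30 ± 0.05 (adjusted p = 0.00939, edgeR), the second lost without the female prefrontal pair.

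**Figure D5:**
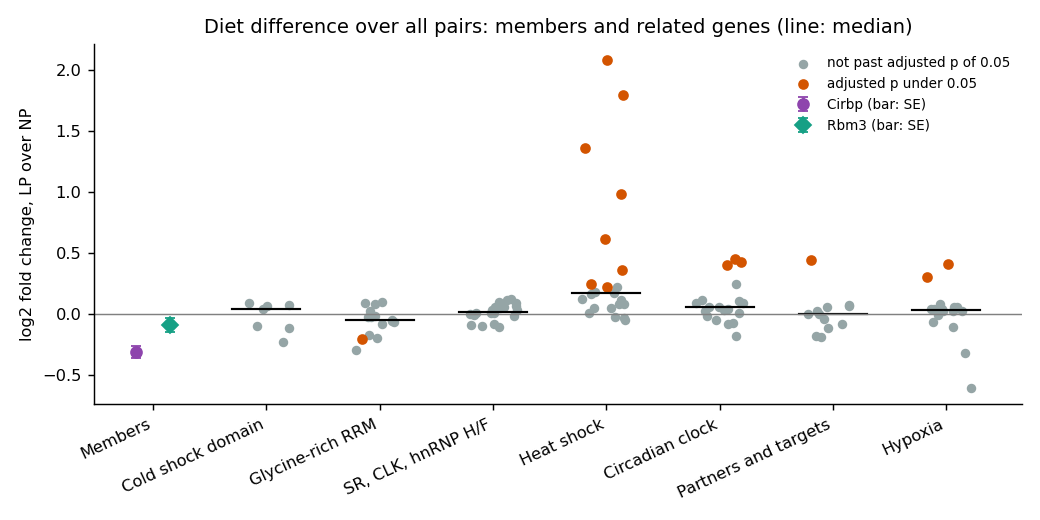
Log2 fold change of LP over NP in the fit over all pairs for Cirbp and Rbm3 (with SE) and for the tested genes of 7 related groups, 1 point a gene, with a line at each group's median and genes past an adjusted p of 0.05 in orange. Cirbp lies at -0.31 and Rbm3 at -0.09, and the orange points lie mainly in the heat shock group, where all 8 are above 0.

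Markers of other cell types also moved with diet. All 8 oligodendrocyte markers had values below 0 over the pairs, with a median of -0.33. In the edgeR fit 1 passed (Opalin), and 8 were under an unadjusted p of 0.05. Without the male hippocampus pair 6 of the 8 passed, and without any of the other 4 pairs none did. Their pair medians were -0.44 in hypothalamus, -0.21 in female and 0.08 in male hippocampus, and -0.25 in female and -0.76 in male prefrontal cortex. Of 5 red blood cell markers 4 fell, with a median of -0.61 and pair medians from -0.80 to -0.40. Their summed level was 1241 CPM in LP and 1818 CPM in NP hypothalamus. It was 345 to 350 CPM in LP hippocampus and 451 CPM in male NP hippocampus. In prefrontal cortex it was 667 to 762 CPM in LP and 1113 to 1288 CPM in NP. Of 6 hypothalamic markers 4 fell in the edgeR fit (Hcrt, Pmch, Avp and Oxt), with 0 called by DESeq2 and 0 without the hypothalamus pair, where 1 of the 6 could be tested. Of 6 pituitary markers 2 passed as lower (Gh and Prl), with 0 called by DESeq2, by edgeR's earlier method or without the male hippocampus or the female prefrontal pair. The log2 ratio of LP over NP for Gh was -9.63 in male hippocampus, but 3.95 in female hippocampus and 1.48 in female prefrontal cortex. Of 5 tested choroid plexus markers 1 passed as higher (Ttr), with 0 called by DESeq2 and in 3 of the 5 fits without 1 pair. None of the markers of neurons (8), astrocytes (6), microglia (6), endothelium (6), thalamus (6), neocortex (6) or hippocampus (6) passed in edgeR or DESeq2, and 0 were under an unadjusted p of 0.05. Single pairs differed more. Endothelial medians ran from -0.36 in male prefrontal cortex to 0.56 in hypothalamus, and astrocyte medians from -0.32 to 0.11 in the same pairs. Thalamus medians ran from -0.61 in female hippocampus to 0.33 in hypothalamus. Neuron medians stayed between -0.02 and 0.04. The part of blood and of the other markers that moved in the Cirbp and Rbm3 values was not tested.

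Genes with the most similar profiles were found by Pearson r of log2 CPM over libraries. For Cirbp, over 10 libraries and 7736 genes, they were Sdhaf4 (r = 0.99), Rpl36a-ps2 (0.98), Plch1 (0.97), Trappc6b (0.97) and 2410006H16Rik (0.96). For Rbm3, over 9 libraries and 10738 genes, they were Cep83os (0.97), Tars2 (0.97), Endov (0.96), Ndst3 (0.96) and Mrpl3 (0.96), and Cirbp ranked 8478 for likeness to Rbm3. The libraries of a region share tissue, so these values are a description. By distance of the pair ratios of LP over NP alone, the genes nearest to Cirbp were Frg2f1, Cdpf1, Mfsd4b4, Glrx2 and Mrpl55 (distances of 0.144 to 0.254 on the log2 scale over 5 pairs). Those nearest to Rbm3 were Sardh, Ankrd10, Gabra3, Dpy19l1 and Ndufaf7 (0.0440 to 0.0738 over 4 pairs). No gene was on both lists of the same member.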

How the data were processed

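Libraries had been made with the TruSeq kit from 1 µg of total RNA per the labels' protocols. CASAVA, FastQC 0.10.1, STAR 2.5.0a and the build mm10 are named in the submitters' processing notes. The table that the authors deposited holds raw, unnormalized read counts by Ensembl gene, and the counting tool, its strand setting and its annotation were not given in the sources used here. Of 47729 genes 47310 were matched to GENCODE M21 (GRCm38) and 419 were not. No row without a gene was present. Per library, 7871010 to 16265481 counts were available, and 3 counts, the limit that a count of 0 allows, equal 0.184 to 0.292 CPM in the complete libraries.

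Genes were filtered with filterByExpr (minimum count 10), scaled by TMM and tested with edgeR 4.0.16 (glmQLFit without the legacy option, R 4.3.3) with Benjamini-Hochberg adjustment at 0.05. Diet was fitted with each combination of region and sex as a stratum (residual degrees of freedom 4 for Cirbp and 3 for Rbm3), region with sex and diet as terms (5 and 4) and sex within strata of region and diet (3 and 2). The 28131 genes measured in all libraries were fitted in 10 libraries and the rest in 9, and p-values were adjusted together. Pair ratios used TMM-scaled CPM with a prior count of 2 and exact binomial intervals of the counts at 95%. Transcripts were compared with BLAST 2.17.0 (copies: at least 90% identity over 200 bases) and coding sequences aligned with Biopython 1.88. DESeq2 1.42.0, its size factors, no filter, edgeR's earlier method, additive terms in place of strata, another prior count and leaving out each pair or library were tried. Library totals only, male libraries only and Rbm3 summed with Rbm3-ps and Gm10156 were chosen after seeing the data. So were the Rbm3 fits of diet differences, the recounts of the lists and the lengths of single transcripts.

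The genes, the lists and the tests were chosen with earlier results of these data known. Genes were named by these rules: from each list the genes past 0.05 (up to 4 per direction by smallest p), or the 2 with the highest mean CPM where none passed (1 such gene is not reported here); the 5 genes most alike in level and in pair ratios, among those with a mean of at least 10 CPM; and genes that overlap a member, start within 10 kb of it or hold a near-identical transcript. Hsf1, Clock, Ntrk2, Rtn3 and Sp1 were named besides, for their known role, after their values were seen.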

Additional observations from a re-analysis of the deposited data

Results flagged for a closer look

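The Rbm3 log2 ratio of LP over NP in male hippocampus, 0.0895, stood apart from the other 3 pairs, which lay between -0.16 and -0.13. Its gap to the nearest pair was 0.904 of the whole range, above the 95% critical value of Dixon's test for 4 values, which chance passes in about 1 group of 20. Both genes were checked in this way, they were chosen with these counts known, and the pairs come from different regions. The value is therefore a flag and not a test. The same gene had opposite signs between regions: 0.0895 in the hippocampus pair against -0.16 in both prefrontal pairs, and -0.13 in the hypothalamus pair against 0.0895 in the hippocampus pair. Tests of these 2 differences gave 0.25 ± 0.14 (SE, adjusted p = 1) and -0.22 ± 0.15 (SE, adjusted p = 0.749) in edgeR fits with 1 residual degree of freedom. The NP library of that pair also held 556 CPM of pituitary markers and the largest share of Rbm3-ps counts, 9.25% of Rbm3, and the part of either was not tested. For Cirbp no pair stood apart in this way (0.572 of the range, below the critical value for 5 values).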

How the results depend on the processing

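Cirbp kept its direction between diets under 11 alternatives (-0.35 to -0.29), and its 3 region differences kept their direction and call under 16 each. Rbm3 between diets stayed below 0 under 11 alternatives. With pairs left out it ranged from -0.15 (without male hippocampus) to -0.0648. Rbm3 in hippocampus against prefrontal cortex was -0.02 and became 0.0522 without the male NP hippocampus library (-0.0718 to 0.0522 over libraries left out), and passed in neither case. With library totals only, Rbm3 in hypothalamus against prefrontal cortex was -0.15 and against hippocampus -0.13, no longer past the threshold. The cause was not tested. The log2 ratio of Cirbp over Rbm3 per length was 0.76 with union exon lengths, and -0.20 and -0.29 with the principal Cirbp transcript and the Rbm3 transcripts of 1225 and 1152 bases.

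The diet fit called 223 genes, DESeq2 117, and fits without 1 pair 85 to 245. Calls of the diet difference between hippocampus and prefrontal cortex were 0, with 1 under edgeR's earlier method and 0 to 42 without 1 pair. Calls of that between sexes were 19, with 0 without a filter, 12 with DESeq2 and 5 to 213 without 1 pair. Calls between sexes were 79, with 34 without a filter, 38 with DESeq2 and 43 to 110 without 1 library. No paired analysis was possible because the labels number no replicates and give 1 library per region, sex and diet, beyond the strata of region and sex already in the fit.

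With 1 library per condition and 544 to 2121 Cirbp counts in each, differences between diets within the counting intervals were not detectable in a single pair.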
